A study of Mus musculus with 6 samples.

Results

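The genes described were chosen by gene symbol, with earlier results of these data known. All 38 belong to the folding and quality control machinery of the endoplasmic reticulum (ER). They were 4 sensor and transcription factor genes (Atf6, Ern1, Eif2ak3 and Xbp1), 10 genes of ER-associated degradation (ERAD), 9 chaperones and lumenal factors, 4 DnaJ co-chaperones, 7 oxidoreductases and 4 genes of translocation. They stand among 24239 gene symbols on the array, of which 13284 were detected, meaning that in 1 of the groups or both every array had a probe clearly brighter than background. All 38 genes were detected, and each was above background on all 6 arrays. They had 52 probes, of which 49 were detected. For a gene with several detected probes the brightest one was used.

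Livers of male B6C3F1 mice, a hybrid laboratory strain, were compared after 5 days of oral dosing. The 3 control mice received corn oil, and the 3 TCE mice received trichloroethylene (TCE), an industrial solvent, in corn oil at 1000 mg/kg body weight per day. The mice were 7 weeks old according to the labels, and all 6 received the corn oil vehicle. RNA of each liver was labelled with Cy3 and hybridised to a 1-colour Agilent mouse array, so a value below is the log2 of a probe's signal and has no meaning as a level relative to another gene.

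Proteins that are secreted or sit in membranes enter the ER through a translocation pore, fold there with chaperones and disulphide-forming oxidoreductases, and are pulled out and degraded by ERAD when they fail. Cells watch this load through the sensors IRE1 (gene Ern1), PERK (Eif2ak3) and ATF6 (Atf6). IRE1 splices the mRNA of the transcription factor Xbp1, PERK slows translation, and ATF6 is cut from the membrane to act in the nucleus. Hepatocytes secrete most plasma proteins and carry a large ER. Sensor activity (splicing, phosphorylation, cleavage) was not analysed here, and all values concern mRNA.

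The arrays correlated at r = 0.987 to 0.990 among control mice, 0.978 to 0.987 among TCE mice and 0.971 to 0.982 between groups, over detected probes. Control mouse 1 lay on its own slide and scan, and the other 5 arrays shared a slide. The 11 detected hepatocyte markers had a summed log2 level of 21.10 to 21.19 in control mice and 21.07 to 21.16 in TCE mice. That sum follows the brightest probes of the array, whose values quantile normalization largely sets, so it is a weak check. Of the 11, Apoa1, Apob and Cps1 were lower and Tat was higher in all TCE mice, none past the threshold, the lowest being Cps1 (log2 difference, TCE minus control, of -0.42) and the highest Tat (0.36). TCE mouse 3 had the lowest value of the 3 TCE mice for 25 of the 38 genes, against 39.8% of all detected genes.

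Most of the chaperones, the co-chaperones other than Dnajb9 and several oxidoreductases had lower mRNA levels in TCE livers, by less than 2-fold. Past the threshold used here (limma adjusted p of 0.05, adjusted over all 22731 detected probes, and a 2-fold change) 3 genes passed. Sdf2l1 and Derl3 were down-regulated and Dnajb9 was up-regulated. Of all genes, 0.429% were down-regulated and 1.3% up-regulated by the same threshold. At the adjusted p of 0.05 alone the same 3 genes passed, where 0.587% of all genes were lower and 1.8% higher.

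Changes are given as the log2 difference, the mean of the TCE mice minus that of the control mice, with the standard error (SE) of the fit. The median log2 difference of the 38 genes was -0.20, with 26 genes below 0 and 12 above, and that of all 13284 genes was 0.02. In 19 of the 38 genes all 3 TCE mice were below all 3 control mice, which was seen in 10.8% of all genes. In 4 of the 38 all 3 TCE mice were above the controls, against 17.1% of all genes. These are descriptions of the list and not a test of it. With 3 mice per group an exact two-sided permutation test of a single gene cannot give a p below 0.1. In whole liver, fewer cells of a type and less RNA per cell cannot be told apart.

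**Figure D1:**
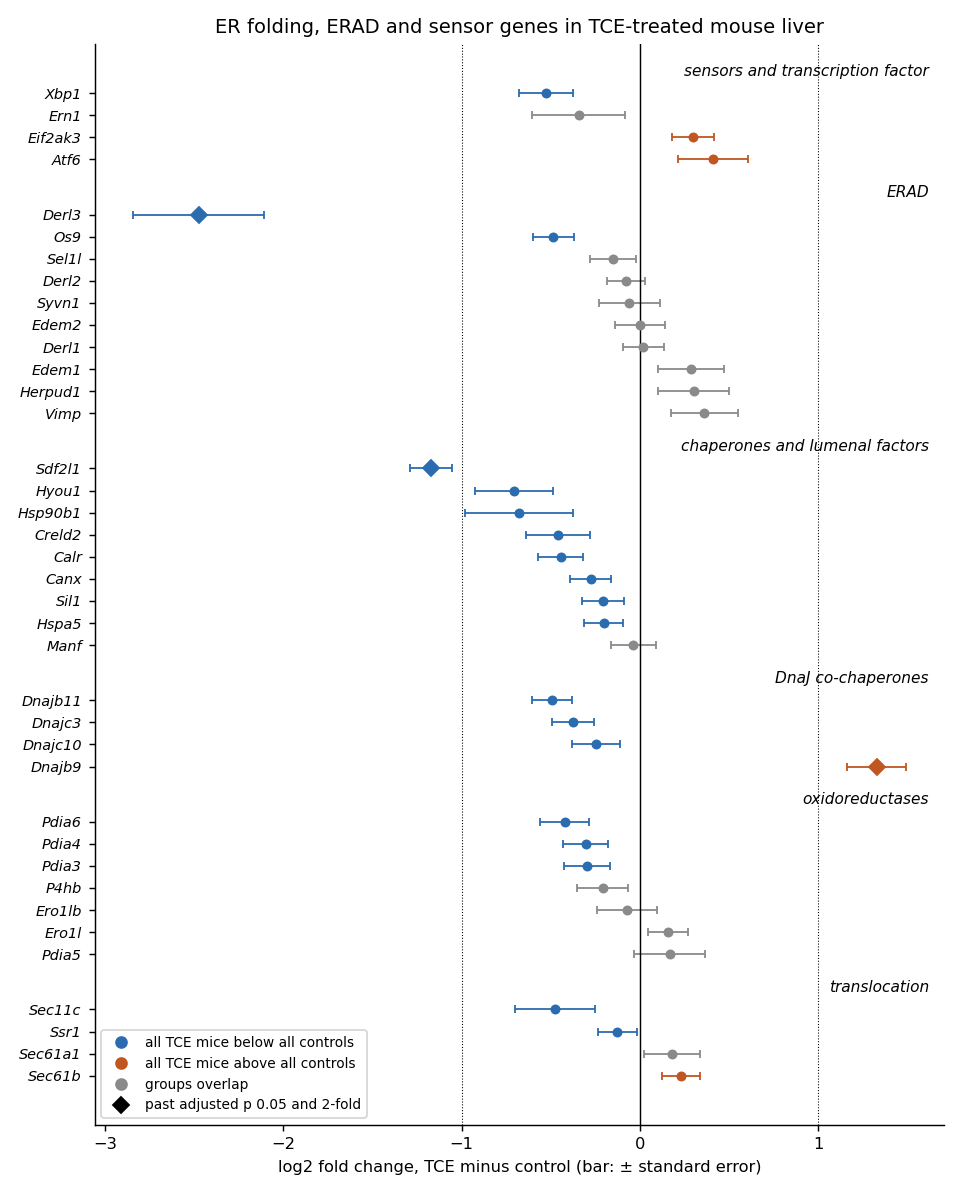
Log2 fold change (log2 difference, TCE minus control, horizontal axis) of the 38 genes, grouped by class, with bars for the standard error from limma. All 9 chaperones and lumenal factors lie left of 0, Sdf2l1 at -1.17 and Derl3 at -2.48 are past the threshold on the left, and Dnajb9 at 1.33 is past it on the right.

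Promoter sequences are shown first because several of these genes share a known control element. RefSeq windows of 250 bases before and 50 bases after the transcription start (GRCm38.p6) were matched for 31 of the 38 genes, 3 of them under newer symbols (Vimp as Selenos, Ero1l as Ero1a and Ero1lb as Ero1b). The windows were searched on both strands. The ER stress response element (ERSE), a site known for binding of ATF6 together with NF-Y, was read as CCAAT, 9 bases and CCACG. It was found in 10 of the 31 genes and in 37 of 27025 genes with a window, or 0.1369%. It was present in 5 of 6 chaperone promoters, 2 of 9 ERAD promoters, 2 of 7 oxidoreductase promoters and 1 of 4 DnaJ promoters. Neither the 3 promoters of the sensor and transcription factor class (Eif2ak3, Ern1 and Xbp1) nor the 2 translocation promoters held it. The sensor gene Atf6 had no matched window. The windows below are 60 bases long, run 5′ to 3′ on the strand of the gene, and have the whole element in capitals.
Hspa5: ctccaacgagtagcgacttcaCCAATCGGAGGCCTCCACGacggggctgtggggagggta
Canx: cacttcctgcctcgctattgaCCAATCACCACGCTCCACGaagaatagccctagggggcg
Hsp90b1: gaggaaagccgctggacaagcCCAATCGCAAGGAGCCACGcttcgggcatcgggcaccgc
Calr: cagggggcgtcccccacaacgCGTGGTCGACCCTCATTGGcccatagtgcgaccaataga
Creld2: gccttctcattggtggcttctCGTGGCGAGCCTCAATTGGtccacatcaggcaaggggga
Derl3: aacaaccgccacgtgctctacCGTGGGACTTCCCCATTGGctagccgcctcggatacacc
Syvn1: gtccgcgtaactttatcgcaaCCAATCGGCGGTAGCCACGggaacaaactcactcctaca
Herpud1: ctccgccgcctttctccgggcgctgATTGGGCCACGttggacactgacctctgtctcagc

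The Hspa5 window lies at chr2:34772004-34772063 on the plus strand, and the Canx window at chr11:50325780-50325839 and the Hsp90b1 window at chr10:86705618-86705677 on the minus strand. The Calr window lies at chr8:84847055-84847114 on the minus strand. Those of Creld2 (chr15:88819499-88819558), Derl3 (chr10:75893221-75893280), Syvn1 (chr19:6046511-6046570) and Herpud1 (chr8:94386352-94386411) are on the plus strand. In Calr, Creld2 and Derl3 the element reads on the strand opposite to the gene. Hsp90b1 held an ERSE a second time, closer to the start, and the remaining ERSE genes were Pdia6, Ero1lb and Dnajc3.

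The Herpud1 window is shown for a variant, ERSE-II, read as ATTGG, 1 base and CCACG. It was found in Herpud1 and Dnajb11, and in 12 of 27025 genes, or 0.0444%. The unfolded protein response element known for XBP1, read as TGACG followed by TGG, was in none of the 31 windows and in 0.7142% of all genes. The element bound by ATF4, read as TGATG, 1 base and AAT, was also in none, against 1.084% of all genes. The short block CCACG, which is part of both ERSE forms and of the reverse strand of the XBP1 element, was in 26 of the 31 windows and in 35.48% of all genes. Sdf2l1 and Dnajb9 held CCACG without an ERSE. A match describes letters in these windows and not a bound site.

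The 10 genes with an ERSE had a median log2 difference of -0.40, ranging from -2.48 in Derl3 to -0.06 in Syvn1. In 8 of the 10 all TCE mice were below all controls (10.8% of all genes), and in 0 of the 10 all were above (17.1% of all genes). The 21 genes without the element had a median of -0.13, with 8 lower and 3 higher in all TCE mice, the latter near the share of all genes. The 21 include Herpud1 and Dnajb11, which hold ERSE-II. Of the 10 genes with an ERSE, 5 were chaperones, so the split by element is partly a split by class. The difference between the sets of promoters was not tested.

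**Figure D2:**
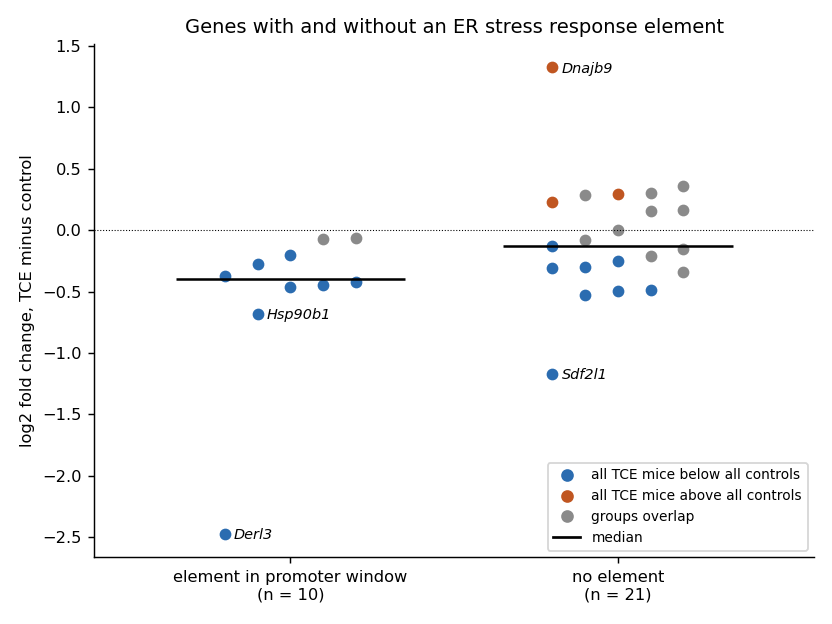
Log2 fold change (log2 difference, TCE minus control, vertical axis) of the 10 genes with and the 21 genes without an ERSE in the promoter window. Each point is a gene, the line is the median of its set (-0.40 and -0.13), and colours show whether the mice of the groups overlapped. None of the 10 points on the left lies above 0, and Sdf2l1 and Dnajb9 stand in the set without the element.

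Among the sensors, the mRNA of the transcription factor and those of 2 of the sensors lay on opposite sides of the controls. Xbp1 had log2 signals of 15.50, 15.27 and 15.70 in control mice 1 to 3, and of 15.11, 14.89 and 14.89 in TCE mice 1 to 3. The lowest control was above the highest TCE mouse. The log2 difference was -0.53 ± 0.15 (SE, n = 3 per group, limma adjusted p = 0.150), which is not past the threshold.

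Eif2ak3, which encodes PERK, was at 9.61, 9.55 and 9.53 in control mice and at 9.96, 9.92 and 9.70 in TCE mice. All TCE mice were above all controls by a small margin, with a log2 difference of 0.30 ± 0.12 (SE, n = 3 per group, limma adjusted p = 0.269). Atf6 was at 9.08, 8.97 and 8.41 in control mice and at 9.25, 9.33 and 9.11 in TCE mice. Control mouse 3 was the low value and TCE mouse 3 was only just above control mouse 1, and the log2 difference of 0.41 did not pass the test (limma adjusted p = 0.346).

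Ern1, which encodes IRE1, overlapped between groups, with 9.22 to 10.06 in control mice and 9.07 to 9.66 in TCE mice (limma adjusted p = 0.544). It had 4 probes, of which 2 were not detected. The other detected probe had a log2 difference of -1.40 ± 0.78 (SE), a spread in which control mouse 3 stood high at 8.07 (limma adjusted p = 0.407).

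The chaperones were the class with the most even direction. All 9 had a log2 difference below 0, with a median of -0.44, and in 8 of the 9 all TCE mice were below all controls, against 10.8% of all genes. Manf, a secreted ER factor, was the exception, at 12.57 to 12.84 in control mice and 12.59 to 12.77 in TCE mice.

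Sdf2l1 encodes a lumenal partner of the chaperone BiP and its DnaJ co-chaperones. Its log2 signal was 11.34, 11.42 and 11.20 in control mice and 10.20, 10.20 and 10.05 in TCE mice. The spread within each group was small beside the distance between them. Sdf2l1 fell 2.25-fold, a log2 difference of -1.17 ± 0.12 (SE, n = 3 per group, limma adjusted p = 0.00965). Its probe lies at chr16:17130426-17130485 on the minus strand of mm9. Without control mouse 2 the adjusted p was 0.0559, and without any other mouse it was at most 0.0456.

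BiP itself, encoded by Hspa5 and the central ER chaperone that also holds the sensors inactive, was lower by far less. Its log2 signals were 15.97, 15.92 and 15.82 in control mice and 15.62, 15.76 and 15.72 in TCE mice. The groups did not overlap, but control mouse 3 and TCE mouse 2 were close. The log2 difference was -0.20 ± 0.11 (SE, n = 3 per group, limma adjusted p = 0.395).

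Hsp90b1, which encodes the ER form of HSP90 known as GRP94, was at 15.52, 15.41 and 15.53 in control mice and at 15.31, 14.11 and 15.01 in TCE mice. TCE mouse 2 was far below the other TCE mice. The log2 difference was -0.68 (limma adjusted p = 0.308) and -0.33 without TCE mouse 2. Hyou1, a large HSP70-like chaperone that exchanges the nucleotide on BiP, was at 7.75, 7.98 and 7.86 in control mice and 7.18, 7.56 and 6.73 in TCE mice. Its log2 difference of -0.71 also missed the threshold (limma adjusted p = 0.172).

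The lectin chaperones, which hold glycoproteins through their sugars, were lower as well. Calr had a log2 difference of -0.44 ± 0.13 and its membrane-bound relative Canx of -0.28 ± 0.12 (SE, n = 3 per group), with limma adjusted p of 0.144 and 0.284. Creld2, a secreted ER stress protein, had a log2 difference of -0.46 (limma adjusted p = 0.254). Sil1, the other nucleotide exchange factor of BiP, had a log2 difference of -0.21 (limma adjusted p = 0.413). In each of these 4 genes the highest TCE mouse was below the lowest control, and none passed the test.

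**Figure D3:**
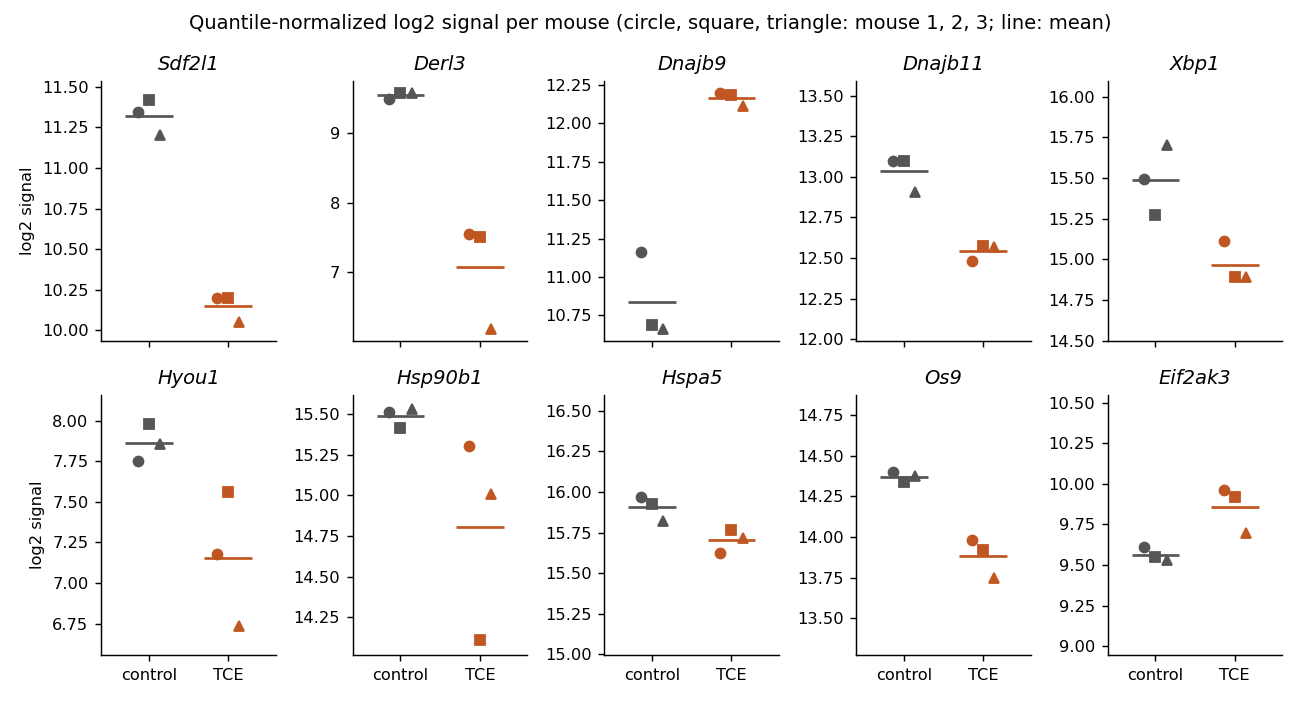
Quantile-normalized log2 signal (vertical axis) of 10 genes in each of the 6 mice. Circles, squares and triangles are mice 1, 2 and 3 of a group and the line is the group mean. Vertical axes differ between genes and do not start at 0. The groups do not overlap in any of the 10, and TCE mouse 3 in Derl3 (6.18) and TCE mouse 2 in Hsp90b1 (14.11) stand far below the other TCE mice.

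The DnaJ co-chaperones bring unfolded proteins to BiP and start its cycle, and they differed among themselves. Dnajb9, which encodes ERdj4, a co-chaperone known as a target of XBP1 and a repressor of IRE1, was the only one that was higher. Its log2 signals were 11.17, 10.69 and 10.66 in control mice and 12.20, 12.18 and 12.11 in TCE mice. The TCE mice lay close together and about 1 log2 unit above the highest control. Dnajb9 rose 2.51-fold, a log2 difference of 1.33 ± 0.16 (SE, n = 3 per group, limma adjusted p = 0.0194).

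A second, dimmer Dnajb9 probe was also higher in every TCE mouse, with a log2 difference of 1.07 (limma adjusted p = 0.0988). The brighter probe lies at chr12:45307313-45307372 on the minus strand of mm9. Its call was lost when control mouse 2 or 3 or any TCE mouse was left out, with adjusted p of 0.0535 to 0.0942, and was kept without control mouse 1 (limma adjusted p = 0.0194). The log2 difference was 1.23 to 1.49 over these 6 fits. With no filter on dim probes the adjusted p was 0.0855.

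Dnajb11, the ERdj3 gene, was at 13.10, 13.10 and 12.91 in control mice and 12.48, 12.57 and 12.57 in TCE mice. This was a log2 difference of -0.49 (limma adjusted p = 0.10), so the gene was not past the threshold. Its second, dimmer probe was at 9.53, 9.62 and 9.09 in control mice and 7.83, 8.48 and 7.85 in TCE mice. That probe fell by 1.36 on the log2 scale (SE 0.23, n = 3 per group, limma adjusted p = 0.0469). The probes had the same direction and differed in size and in their call.

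Dnajc3, an inhibitor of PERK that also binds unfolded proteins, had a log2 difference of -0.38 (limma adjusted p = 0.171). Dnajc10, a co-chaperone that reduces disulphides for degradation, had one of -0.25 (limma adjusted p = 0.395). Neither passed the test, and in both the groups did not overlap.

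The ERAD genes had no shared direction. Of the 10, 5 had a log2 difference below 0 and 5 above, with a median of -0.03, and in 2 the groups did not overlap, both with lower TCE mice. Derl3 was by far the member with the largest difference of all 38. It encodes a derlin, one of the membrane proteins through which misfolded proteins leave the ER, and its promoter window above holds an ERSE.

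Derl3 was at 9.50, 9.58 and 9.58 in control mice and at 7.54, 7.50 and 6.18 in TCE mice. The controls lay close together while TCE mouse 3 was well below the other TCE mice. Derl3 fell 5.56-fold, a log2 difference of -2.48 ± 0.37 (SE, n = 3 per group, limma adjusted p = 0.0315). Its probe lies at chr10:75358503-75358562 on the plus strand of mm9. The log2 difference was -2.02 and the adjusted p 0.00852 without TCE mouse 3. Without any other single mouse the call was lost, with adjusted p of 0.0600 to 0.126 and log2 differences of -2.70 to -2.47. With the slide as a block the adjusted p was 0.101, and with no filter on dim probes it was 0.143. Control mouse 1 was alone on its slide, so the slide block in effect leaves that mouse out and is not a separate check.

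Derl3 is also known for high expression in secretory cells such as plasma cells and pancreatic acinar cells. Of 11 plasma cell and B cell markers, 3 were detected. The probes of all 11 had a summed log2 level of 11.85 to 12.07 in control mice and 11.87 to 12.27 in TCE mice. Nearly all of that sum is the signal of Sdc1, whose mean in control mice was 11.90, against 5.51 in Cd79a. It therefore says little about the other markers. Of 15 pancreatic acinar markers, 5 were detected. The summed log2 level over the probes of all 15 was 11.92 to 12.01 in control mice. In TCE mice it was 10.75 to 11.80, so that the groups did not overlap. That sum is mostly the signal of Amy2a5, which had the lowest log2 difference of the 5 (-0.78, limma adjusted p = 0.323). Of the 5, 3 had a log2 difference above 0, the highest in Cela1 (1.02), and the median was 0.41. In Cela1 the groups overlapped, and control mouse 3 was at 4.06, not above background, with the other controls at 6.60 and 6.02. The gene at the median also had 1 low control, at 4.86, and groups that overlapped. The part of these cells in the Derl3 result was not tested.

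The other derlins, Derl1 and Derl2, had log2 differences of 0.02 and -0.08, and their groups overlapped. A second, dimmer Derl1 probe had 0.21, with all TCE mice above all controls (limma adjusted p = 0.378). Os9, a lectin that hands misfolded glycoproteins to the ubiquitin ligase, was at 14.40, 14.34 and 14.37 in control mice and 13.98, 13.92 and 13.75 in TCE mice. Its difference of -0.49 on the log2 scale had a limma adjusted p of 0.102 and was not past the threshold. The ligase gene Syvn1 and its partner Sel1l had log2 differences of -0.06 and -0.15, and both overlapped. Syvn1 held the same promoter element as Derl3.

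Edem1 and Edem2 encode proteins that trim or recognise the sugars of misfolded glycoproteins, and had log2 differences of 0.29 and 0.00. Herpud1, a scaffold of the ligase complex, was at 14.61 to 15.31 in control mice and 15.16 to 15.42 in TCE mice, with a log2 difference of 0.30 (limma adjusted p = 0.490). Vimp, a selenoprotein that draws the p97 ATPase to the membrane, had 0.36 (limma adjusted p = 0.382). The groups overlapped in all 4 genes, and none passed the test.

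Of the 7 oxidoreductases, 5 had a log2 difference below 0. By limma 0 were past the threshold and 2 had an unadjusted p under 0.05, and by the methods' t-test 3 had one. The share of all genes at that unadjusted p was not counted, here or below. Such counts therefore have no background to be read against. In Pdia3, Pdia4 and Pdia6, all protein disulphide isomerases, the highest TCE mouse was below the lowest control. Pdia6 was at 16.06, 15.97 and 15.71 in control mice and 15.57, 15.53 and 15.38 in TCE mice, a log2 difference of -0.42 (limma adjusted p = 0.187), and its second detected probe had -0.72 (limma adjusted p = 0.0886). Pdia4 and Pdia3, which works with the lectin chaperones, had log2 differences of -0.31 and -0.30 and did not overlap between groups.

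P4hb, the gene of the founding protein disulphide isomerase, had a log2 difference of -0.21, and TCE mouse 1 lay above control mouse 3. Pdia5 was at 11.51 to 11.89 in control mice and 11.55 to 12.18 in TCE mice. The oxidases that recharge these enzymes, Ero1l and Ero1lb, had log2 differences of 0.16 and -0.07, and both overlapped.

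The translocation genes were mixed, and by limma 0 of the 4, each taken by its brightest probe, had an unadjusted p under 0.05, against 1 by the methods' t-test. Sec61b, a small subunit of the translocation pore, was at 15.15, 15.12 and 15.02 in control mice and 15.33, 15.25 and 15.39 in TCE mice, above all controls, with a log2 difference of 0.23 (limma adjusted p = 0.334). The pore subunit Sec61a1 overlapped, with a log2 difference of 0.18. Sec11c, a catalytic subunit of signal peptidase, was at 10.23, 10.59 and 10.37 in control mice and 9.46, 10.21 and 10.09 in TCE mice (limma adjusted p = 0.332). Ssr1, a subunit of the translocon-associated complex, had a log2 difference of -0.13 and was lower in every TCE mouse. Its 2 dimmer probes were lower by more, at -0.42 and -0.38 (limma adjusted p of 0.206 and 0.162), also without overlap and with an unadjusted p under 0.05.

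Per mouse, the median deviation of the 9 chaperones from the control mean was -0.34, -0.16 and -0.36 in TCE mice 1 to 3, and between -0.03 and 0.04 in control mice. That of the 10 ERAD genes was 0.07, -0.06 and -0.13 in TCE mice. For the sensor class it was 0.01, 0.20 and -0.21, so that TCE mice 2 and 3 lay on opposite sides of the controls. By this median all 3 TCE mice were below all controls in the chaperone and DnaJ classes and in none of the other 4. The DnaJ gene Dnajb9 was nevertheless higher in every TCE mouse.

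**Figure D4:**
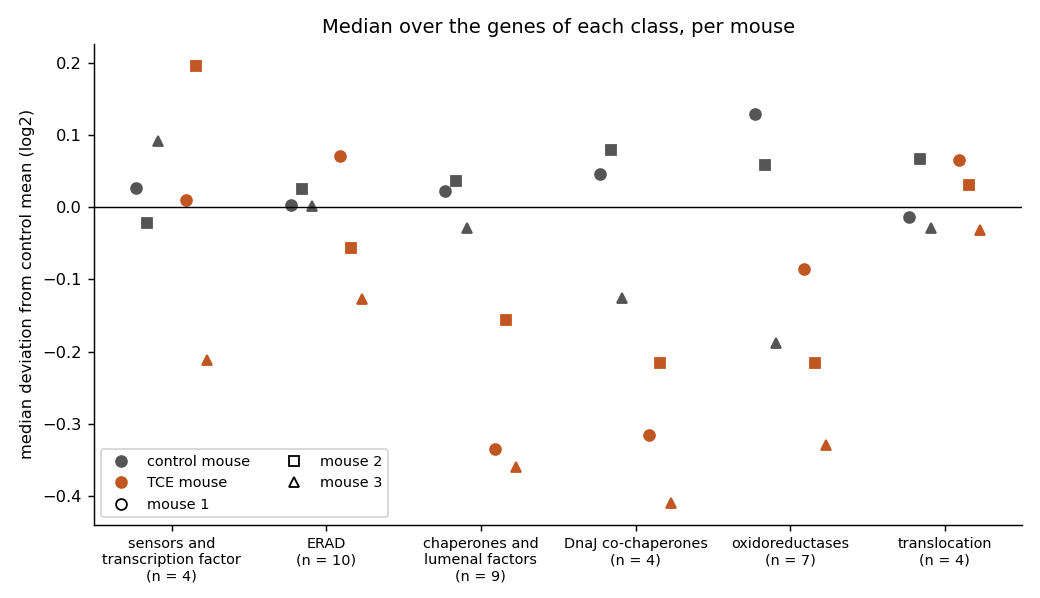
Median over the genes of a class of the deviation from the control mean (log2, vertical axis), for each mouse. Grey points are control mice and orange points TCE mice. The medians of TCE mice lie below those of all controls for the 9 chaperones (-0.34, -0.16 and -0.36) and the 4 DnaJ genes. They overlap with the controls in the other 4 classes. The DnaJ median does not show Dnajb9, which was higher in every TCE mouse.

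Further lists of genes of the same organelle were counted for comparison, to be read against the 10.8% of all genes that were lower and the 17.1% that were higher in all TCE mice. Of 16 detected other oxidoreductases and prolyl isomerases, 5 were lower and 1 higher in all TCE mice, with a median log2 difference of -0.04. Of 15 detected genes of N-glycosylation and glycoprotein folding, 4 were lower and 3 higher, and the median was -0.04. Of 21 other translocation genes, 2 were lower and 5 higher, with a median of 0.00. By limma 0 genes of these 3 lists were past the threshold, and 3 of each list had an unadjusted p under 0.05, where the methods' t-test gave 3, 4 and 5. Without the share of all genes at that p, these counts do not set the lists apart from other genes.

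Of 21 detected genes of ER exit and retrieval, which carry cargo to and from the Golgi, 9 were higher and 1 lower in all TCE mice, with a median log2 difference of 0.10. Of 16 other ERAD genes, 2 were higher and 0 lower (median 0.06), a share of higher genes below that of all genes. Of 13 other regulators of the unfolded protein response, 3 were higher and 1 lower (median 0.07). In the ER exit list the share of higher genes was above the 17.1% of all genes. By limma 0 genes of these lists were past the threshold. At an unadjusted p under 0.05 there were 5 in the ER exit list, 1 in the ERAD list and 2 among the regulators by limma, and 7, 1 and 2 by the methods' t-test. The share of all genes at that p was not counted for these lists either.

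The targets of PERK and ATF4 were measured on the same arrays. Of 10 such genes, 5 were higher in all TCE mice (17.1% of all genes) and 0 lower (10.8% of all genes), and the median log2 difference was 0.54. Vldlr, a lipoprotein receptor, was the 1 gene past the threshold. It was at 5.99, 5.71 and 5.43 in control mice and 7.39, 8.16 and 8.10 in TCE mice. This was a log2 difference of 2.17 (limma adjusted p = 0.0155). Vldlr was dim in control mice, where the floor of the signal was 4.54 to 5.02. The paper also reports up-regulated genes of the peroxisome proliferator-activated receptor (PPAR) pathway. Whether PERK and ATF4 or another regulator raised Vldlr was not tested. Ddit3, which encodes the transcription factor CHOP and was named after its values were seen, was at 7.46 to 8.06 in control mice and 8.67 to 9.14 in TCE mice (limma adjusted p = 0.0661), not past the threshold.

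**Figure D5:**
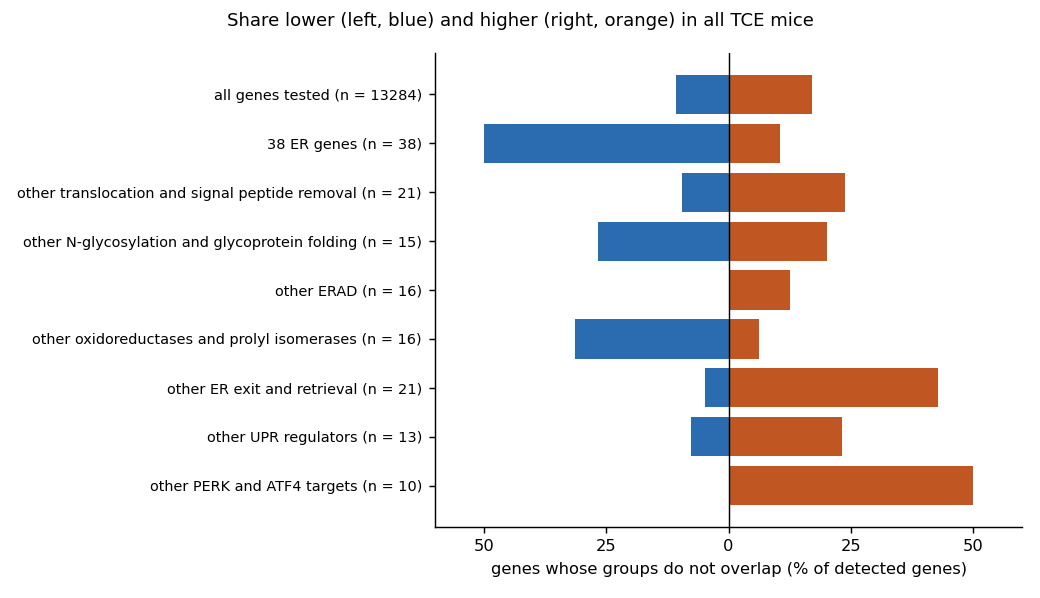
Share of detected genes (horizontal axis, percent) whose groups did not overlap, lower in TCE mice to the left and higher to the right, for all 13284 genes, the 38 ER genes and 7 further lists. The 38 genes have 19 to the left and 4 to the right, the ER exit list 1 and 9, and the PERK and ATF4 list 0 and 5.

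The remaining cell type markers were counted in the same way. Kupffer cell markers had a summed log2 level of 14.64 to 14.81 in control mice and 14.56 to 14.88 in TCE mice. Endothelial markers were at 14.65 to 14.73 and 13.84 to 14.75, stellate cell markers at 14.51 to 15.12 and 14.69 to 15.01, and bile duct markers at 8.94 to 9.31 and 8.59 to 9.08. The groups overlapped in these 4 sums, as they did for hepatocytes and for plasma cells. A sum follows its brightest probes, and single markers differed. Lrat, the stellate cell gene that esterifies retinol, was lower in all TCE mice with a log2 difference of -1.35 (limma adjusted p = 0.0676). All 7 endothelial markers had a log2 difference below 0, with the lowest in Stab2 (-0.54, groups not overlapping), and so had 7 of 8 Kupffer cell markers, with no separated groups, and all 3 detected bile duct markers. By limma 0 of these markers passed the threshold and 1, Lrat, had an unadjusted p under 0.05, as by the methods' t-test. Their part in the results was not tested.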

How the data were processed

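Total RNA of 6 mouse livers was labelled with Cy3 and hybridised to Agilent mouse arrays, which the authors read with Agilent Feature Extraction 10.7.1.1 (named in the submitters' processing notes). The deposited scanner files hold a processed intensity per spot, and the deposited summary table holds mean intensity and mean quantile-normalized log2 values per group. Its 6 flag columns named for arrays were not used. Its other columns hold the authors' fold changes and p-values and were also not used. The group means computed here lay within 0.01 of the deposited log2 means for 99.9856% of probes.

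Control spots were left out, which left 59305 spots. Of these, spots flagged as outliers (123 to 189 per array) were left out on the array concerned. The spots of 1 probe were averaged, which gave 55681 probes. Log2 intensities were quantile normalized across arrays. The 22731 detected probes were well above background on all 3 arrays of a group, 23537 to 24965 probes per array were above background, and no spot was saturated. The number of arrays limits the precision. A linear model without covariates (lmFit, then eBayes, from limma 3.58.1 under R 4.3.3) was fitted over all detected probes, and p-values were adjusted by Benjamini-Hochberg over all of them. Each of the 13284 detected genes was then represented by its brightest detected probe. The threshold was an adjusted p of 0.05 and a 2-fold change. The fit was tested on simulated data with planted changes larger than most of those given here, so smaller ones were not covered. Groups came from the labels, which describe separate mice. Mouse numbers are the replicate numbers in the labels. The submitters' names for the scanner files carry other numbers, so the numbering of the mice is uncertain within a group.

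The 38 genes, the lists and the tests were chosen with earlier results of these data known. Every one of the 38 could be named. From the other lists up to 4 genes past the threshold were to be named, and from the marker lists the detected genes with the highest and lowest change. Promoter windows came from RefSeq (GRCm38.p6), and probe positions are those of the files (mm9). A check for C-terminal retention signals was not run because it needs protein sequences, which were not used here. Alternatives were another scaling, background correction, filters, blocks, variance models, probe rule, the methods' t-test, and each mouse left out. The counts of genes without overlap under these settings were added after seeing the data.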

Additional observations from a re-analysis of the deposited data

How the results depend on the processing

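Among the 38 genes, 2 were lower and 1 higher past the threshold, both with and without the 2-fold criterion. These counts were the same with scaling to the 75th percentile, normexp background correction, the stricter filter on all 6 arrays and outlier spots kept. With no filter on dim probes they were 1 and 0, and with the methods' t-test after Benjamini-Hochberg adjustment 1 and 0. With the slide as a block, which in effect leaves out control mouse 1, 1 gene was lower. Without the 2-fold criterion, trend and robust variances gave 4 lower genes. The mean over all detected probes of a gene gave 3, among them Dnajb11 at a log2 difference of -0.93 (limma adjusted p = 0.0315). The unadjusted methods' t-test gave 13 lower and 3 higher, and the share of all genes at that unadjusted p was not counted. With 1 mouse left out the lower count ranged from 0 to 2 and the higher from 0 to 1. The numbers of the mice, which are uncertain within a group, gave no sign of pairing: deviations of same-numbered mice correlated at r = 0.09, 0.01 and -0.09. With the replicate block 0 genes were lower and 0 higher.

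The count of genes higher without overlap ranged from 4 to 8 with 1 mouse left out, 8 without control mouse 1 and 7 without TCE mouse 3. The lower count ranged from 19 to 21 in the same fits. It was 15 with scaling to the 75th percentile and 16 with normexp. The shares of all genes were counted only for the main setting, so 10.8% and 17.1% do not apply to these counts. With a mouse left out, groups also separate more easily. The chaperone median log2 fold change ranged from -0.42 to -0.32 with 1 mouse left out. The translocation median was 0.0879 with normexp and -0.0706 over all detected probes of a gene, and ranged from -0.0197 to 0.0502 with 1 mouse left out.

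Among the log2 differences of single genes, signs turned only in genes whose groups overlapped. With the slide as a block Derl1 was at -0.0140, Edem2 at -0.0329 and Manf at 0.0386. With normexp Derl1 was at -0.0179 and Manf at 0.0193, and Manf was at 0.0102 with the 75th percentile. With 1 mouse left out, Derl1 ranged from -0.0485 to 0.0607, Edem2 from -0.0719 to 0.117, Ero1lb from -0.178 to 0.0553, Manf from -0.0984 to 0.0395, Pdia5 from -0.0104 to 0.307 and Syvn1 from -0.203 to 0.0945. The causes were not tested.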
